A study of Mus musculus with 6 samples.

Results

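The p65 subunit of NF-κB was mapped by chromatin immunoprecipitation followed by sequencing (ChIP–seq) in mouse epidermal cells, and the peaks described here are those farthest from genes. A peak was called far distal when its middle lay at least 50 kb from the nearest start site of a curated RefSeq transcript and that start site belonged to a protein-coding gene. The rule used positions only, not peak strength, sequence or presence in another list. It held for 834 of 8525 peaks in adult cells (9.78%, 95% Wilson interval 9.17 to 10.4), 454 of 4169 in aged/IgG control cells (10.9%, 9.98 to 11.9) and 639 of 6014 in aged/anti-IL-17A/F cells (10.6%, 9.87 to 11.4). Of the positions of the assembled genome, taken every 1000 bp, 35.6% satisfied the same rule, so that each share of peaks was below that of the sequence. The lists are called adult, control and anti-IL-17A/F from here on. Together the far distal peaks were 1927 of 18708 peaks, and they merged by overlap into 975 sites.

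All mice were of the C57bl/6J strain. Adult mice of 17 to 25 weeks received no treatment, and aged mice received control IgG or neutralizing antibodies against IL-17A and IL-17F, 3 injections a week for 12 weeks from an age of 73 weeks. The alignments of 4 mice were merged in each condition and reduced to the same number of reads, and peaks were called once on each pool, so that the spread between animals is not in the lists and no test between conditions was possible. All intervals below cover counting error only. The series has 6 samples; the 3 input samples were not analysed here. The peak names inside the adult list begin with the prefix Treated_m, as do those of the anti-IL-17A/F list, whereas those of the control list begin with Control_m. The adult list was used under its label, every comparison of adult with another list rests on it, and the share of peaks that control lacks and the fold enrichment ratios are also given with both lists exchanged. A peak was assigned in the adult, control and anti-IL-17A/F lists to 11, 5 and 8 of 12 keratinocyte genes, among them Trp63 and Cdh1 in every list, and to 2 of 11 immune cell genes (Itgam and H2-Ab1) in each list. Fibroblast genes had 1, 0 and 2 of 8, endothelial genes 1 of 4 in each list (Pecam1) and melanocyte genes 0 of 6. Of all protein-coding genes, 23.0%, 12.9% and 17.4% had an assigned peak in the 3 lists. In every list, 1 of the 12 keratinocyte genes, 2 of the 8 fibroblast genes and 0 of the immune, endothelial and melanocyte genes flanked a far distal peak. A peak is not expression, so that these counts describe binding in cells labelled as epidermal and not the purity of the cells.

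p65, encoded by Rela, is held in the cytoplasm by IκB proteins until receptors for cytokines such as IL-17, IL-1 and TNF start the kinase cascade that degrades them. It then enters the nucleus and binds, with p50 or another Rel protein, at short G-rich sites in promoters and in distal elements. Elements far from any start site often act as enhancers of genes on either side, including genes beyond the nearest one, so that neither a nearest nor a flanking gene is by itself the target of a peak.

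The sequences at the strongest far distal peaks show what most of the following counts rest on. Each is the reference sequence (GRCm38, RefSeq, plus strand) of the 50 bases on either side of the summit in the list where the peak was strongest. Capitals mark matches to the NF-κB consensus motif on either strand, and overlapping matches form a single run of capitals. Of the peaks among the 5 strongest of a list, those by Cryaa, Pkdcc and Tmem45b are not printed. The first 6 are the peaks near Nav2 (chr7:49400787-49400887), Igfbp3 (chr11:7404977-7405077), Tm2d1 (chr4:98131044-98131144), Rad51b (chr12:79600404-79600504), Psmg4 (chr13:34213027-34213127) and Insyn2b (chr11:34515508-34515608).
Nav2: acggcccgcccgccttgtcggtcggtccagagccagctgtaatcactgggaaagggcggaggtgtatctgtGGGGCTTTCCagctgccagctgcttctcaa
Igfbp3: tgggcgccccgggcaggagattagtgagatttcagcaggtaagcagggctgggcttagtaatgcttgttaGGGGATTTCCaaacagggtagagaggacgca
Tm2d1: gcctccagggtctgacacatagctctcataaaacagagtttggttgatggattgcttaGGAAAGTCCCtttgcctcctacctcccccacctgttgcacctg
Rad51b: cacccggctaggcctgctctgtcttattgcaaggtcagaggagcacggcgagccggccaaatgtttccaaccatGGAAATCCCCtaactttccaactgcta
Psmg4: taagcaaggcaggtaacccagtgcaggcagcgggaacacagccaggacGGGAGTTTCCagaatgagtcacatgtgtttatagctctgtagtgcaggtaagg
Insyn2b: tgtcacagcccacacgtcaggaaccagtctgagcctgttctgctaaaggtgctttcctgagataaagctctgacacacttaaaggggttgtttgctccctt
The peak nearest to Insyn2b had the highest fold enrichment of all far distal peaks in the adult list and held no match, and the other 5 held 1 match each.

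The next 5 are peaks found in part of the lists or next to genes that the results turn on. Evc2 (chr5:37522521-37522621) was present in both aged lists and Rere (chr4:150338964-150339064) in the anti-IL-17A/F list alone. Trp63 (chr16:25746919-25747019), Bmp2 (chr2:133432518-133432618) and Cd44 (chr2:102981639-102981739) were present in all 3 lists.
Evc2: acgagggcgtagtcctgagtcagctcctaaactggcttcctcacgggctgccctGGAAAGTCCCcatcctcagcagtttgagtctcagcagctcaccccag
Rere: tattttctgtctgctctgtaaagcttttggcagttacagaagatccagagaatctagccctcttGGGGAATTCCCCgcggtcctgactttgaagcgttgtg
Trp63: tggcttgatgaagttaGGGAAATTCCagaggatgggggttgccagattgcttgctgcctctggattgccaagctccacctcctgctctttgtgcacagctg
Bmp2: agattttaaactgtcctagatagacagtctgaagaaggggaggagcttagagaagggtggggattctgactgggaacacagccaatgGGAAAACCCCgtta
Cd44: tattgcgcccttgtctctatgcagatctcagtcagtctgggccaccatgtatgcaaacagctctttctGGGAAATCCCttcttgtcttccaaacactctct
Each of the 5 held the motif, and in the Rere peak 3 overlapping matches formed a palindromic run. They do not stand for their classes. The motif was present in 35.7% of sites in both aged lists only, 30.8% in anti-IL-17A/F alone and 44.2% in all 3 lists.

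Far distal peaks were intronic and intergenic in nearly the same proportions in every list. The middle of the peak lay in an intron of a curated transcript in 366 of 834 adult peaks (43.9%, 40.6 to 47.3), 199 of 454 control peaks (43.8%, 39.3 to 48.4) and 280 of 639 anti-IL-17A/F peaks (43.8%, 40.02 to 47.7). It lay between genes in 54.8%, 54.6% and 54.8%, and in an exon in 11, 7 and 9 peaks. Of the genome positions that satisfy the same distance rule, taken every 1000 bp, 33.3% were intronic and 65.8% intergenic, so that the intron share of the peaks was above that of the sequence in each list. Peaks 10 to 50 kb from a start site had intron shares of 47.2%, 47.3% and 46.6%. The difference of the far distal peaks from these was -3.36 percentage points (95% Newcombe interval -7.36 to 0.685) in adult, -3.50 (-8.96 to 2.04) in control and -2.83 (-7.42 to 1.81) in anti-IL-17A/F, with 0 inside each interval.

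An intronic peak usually, but not always, lay inside the gene whose start site was nearest. The host was the nearest gene in 66.1% of intronic adult peaks, 64.8% of control and 69.3% of anti-IL-17A/F peaks, and the first intron held 16.4%, 18.1% and 17.5%. The strongest adult far distal peak was of the other kind. It lay 201 kb from the start site of Insyn2b but in intron 22 of Dock2, which encodes an activator of Rac in white blood cells. The peak nearest to Psmg4, a proteasome assembly chaperone, lay in intron 4 of Slc22a23, a transporter gene.

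The distances had a long tail. The median was 86671 bp in adult, 86625 bp in control and 86900 bp in anti-IL-17A/F. Between 50 and 100 kb lay 59.1%, 59.5% and 58.5% of the peaks, and 12, 5 and 5 peaks lay beyond 500 kb. The farthest were in introns of Macrod2, with Flrt3, a cell adhesion gene, as the nearest start site, and near Efnb2, a ligand of Eph receptors. A peak 746 kb from Flrt3 was present in adult alone, with a fold enrichment of 2.26. A neighbouring peak 608 kb from Flrt3 was strong in every list, with fold enrichments of 9.33 in adult, 8.25 in control and 7.05 in anti-IL-17A/F, and held both the NF-κB and the AP-1 motif. The peak 630 kb from Efnb2 had 7.21, 4.16 and 5.11. Near the limit itself, the peak by Psmg4 was just inside at 50085, 50025 and 50045 bp with fold enrichments of 14.9, 13.0 and 13.4, and peaks by Insig2 (adult, 49951 bp, 3.91) and Vav3 (control, 49899 bp, 3.91) were just outside.

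What counts as far depends on which transcripts are taken as genes. When predicted RefSeq transcripts were added to the curated ones, 207, 120 and 158 peaks remained at least 50 kb from a start site and assigned to a protein-coding gene. When instead non-coding genes were ignored, the counts were 1462, 782 and 1113. The distances given here are therefore those to curated start sites, and a predicted start site can be closer.

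Far distal peaks had a slightly higher median strength than peaks at promoters, as did peaks 10 to 50 kb from a start site. The fold enrichment that MACS2 gives at the summit had a median of 3.75 in adult (range 1.91 to 18.2), 3.91 in control and 3.79 in anti-IL-17A/F far distal peaks, against 3.34, 3.596 and 3.41 in peaks within 1 kb of a start site and 3.75, 3.98 and 3.84 in peaks at 10 to 50 kb. Above the median of the whole list were 55.5% (52.1 to 58.9), 52.4% (47.8 to 57.0) and 55.2% (51.4 to 59.1) of far distal peaks. The sequence differed more. The 100 bp on either side of the summit had a median GC content of 49.3%, 49.3% and 48.8%, against 64.7%, 63.7% and 64.7% within 1 kb of a start site, and a median of 3, 2 and 3 CpG dinucleotides against 16, 15 and 16. Peaks at 10 to 50 kb were close to the far distal ones, with a median GC content of 51.2% and 3 CpG dinucleotides in every list.

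The NF-κB consensus motif was more frequent at far distal peaks than at promoter peaks. It was searched on both strands in the 100 bp on either side of the summit. It was present in 282 of 834 adult peaks (33.8%, 30.7 to 37.1), 187 of 454 control peaks (41.2%, 36.8 to 45.8) and 241 of 639 anti-IL-17A/F peaks (37.7%, 34.0 to 41.5). Equally wide windows placed 2000 bp to either side held it in 1.38%, 0.881% and 1.41%, and windows centred on the start sites of protein-coding genes in 3.41%. The far distal share exceeded that of peaks within 1 kb of a start site by 11.6 percentage points (8.14 to 15.2) in adult, 9.22 (4.07 to 14.4) in control and 10.3 (6.07 to 14.6) in anti-IL-17A/F. Against peaks at 10 to 50 kb the differences were 2.81 (-0.948 to 6.66), 1.21 (-4.19 to 6.69) and -1.06 (-5.52 to 3.50), and every interval held 0. With each list reduced to its 4169 strongest peaks, the difference from promoter peaks fell to 5.28 (-0.0237 to 10.7) in adult, with 0 inside the interval, and to 5.43 (0.181 to 10.7) in anti-IL-17A/F. Among peaks with a −log10 q of at least 10 it was 7.74, 6.80 and 5.39.

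**Figure D1:**
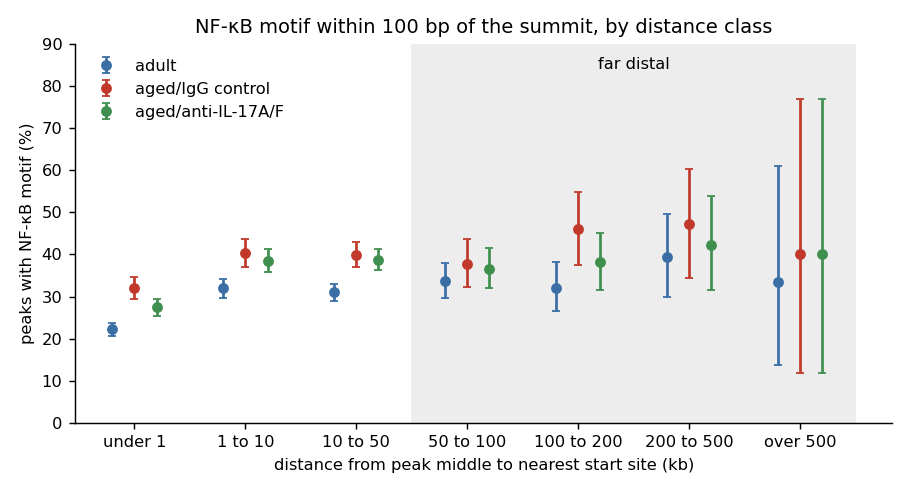
Share of peaks with the NF-κB consensus motif within 100 bp of the summit (vertical axis, %) by distance of the peak from the nearest start site (horizontal axis, kb), for the 3 lists. Points are shares and bars 95% Wilson intervals; the share is lowest within 1 kb in each list (22.2%, 32.0% and 27.4%), and the class beyond 500 kb holds only 12, 5 and 5 peaks.

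The difference in motif share between the lists went with their lengths. With each list reduced to its 4169 strongest peaks, far distal peaks held the motif in 42.4% in adult, 41.2% in control and 42.5% in anti-IL-17A/F. Within a list the share rose with strength. In adult it was 18.3% in the lowest quartile of fold enrichment of the list and 24.6%, 35.0% and 52.0% in the following ones. In the highest quartile far distal and promoter peaks differed by 1.97 percentage points (-5.57 to 9.44) in adult, 0.269 (-10.2 to 10.5) in control and -1.34 (-10.1 to 7.30) in anti-IL-17A/F, so that no difference was detectable among the strongest peaks. In the lowest quartile the differences were 10.01 (4.502 to 16.8), 7.91 (0.0350 to 17.3) and 9.47 (2.72 to 17.7).

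**Figure D2:**
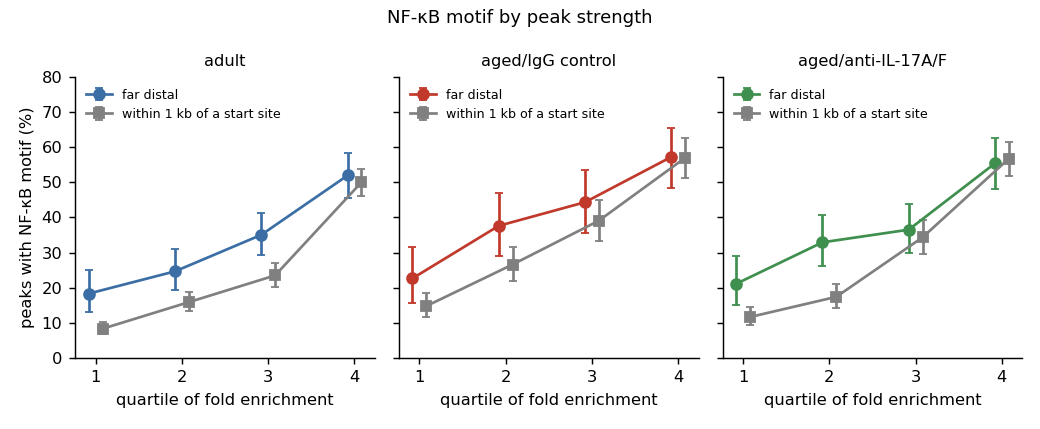
Share of peaks with the NF-κB consensus motif (vertical axis, %) in each quartile of fold enrichment of the list (horizontal axis, 1 lowest to 4 highest), far distal peaks as circles and peaks within 1 kb of a start site as grey squares, with 95% Wilson intervals. Both rise with strength and meet in the highest quartile (57.3% and 57.0% in control).

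The matches lay near the summit, and some sequences recurred. Of the 975 merged sites 324 (33.2%) held a match, 70 of them at 2 or more positions, and the centre of the nearest match was a median of 22 bp from the summit. Of the 42 distinct matched sequences, GGGACTTTCC was the most frequent, at 37 sites (11.4% of the sites with a match), followed by GGGGAATTCC at 29, GGGGATTTCC at 27, and GGGAAATTCC and GGGAAATCCC at 25 each. The Igfbp3 peak carries GGGGATTTCC, and the Tm2d1 peak carries GGGACTTTCC on the minus strand. A match describes the letters in a window and not occupancy of those bases.

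The pattern TGANTCA, which covers sites bound by the AP-1 proteins Fos and Jun, was also frequent at far distal peaks and rare at promoter peaks. A match is called an AP-1 motif here. The middle base was left free, and shares by middle base were not computed. TGANTCA was present in 20.02%, 20.7% and 20.3% of far distal peaks in adult, control and anti-IL-17A/F, in 7.25%, 6.72% and 7.67% of the windows 2000 bp away, and in 4.74%, 5.35% and 5.58% of peaks within 1 kb of a start site. The difference from these promoter peaks was 15.3 percentage points (12.6 to 18.2), 15.4 (11.6 to 19.5) and 14.8 (11.6 to 18.2). Against peaks at 10 to 50 kb the intervals held 0. No difference in the NF-κB motif was detectable between peaks with and without an AP-1 motif. In adult 31.1% of far distal peaks with TGANTCA and 34.5% of those without it held the NF-κB motif, a difference of -3.35 (-10.9 to 4.83), and the intervals of the other lists held 0 as well.

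Of other motifs of epidermal factors, some were more frequent at the summits than beside them and some were not. GGAATG, the TEAD motif, was present in 16.5%, 16.96% and 15.8%, against 8.87%, 9.58% and 8.92% in the windows 2000 bp away. AACNGGTT, the grainyhead-like motif, was present in 5.28%, 6.39% and 5.48%, against 1.14%, 0.881% and 1.25%. TGTGGT, the RUNX motif, had 12.4%, 10.1% and 12.5%, against 15.1%, 14.3% and 15.7%. CATGNNNNNNCATG, the core of the p63 motif, was found in 13, 2 and 7 peaks (1.56%, 0.441% and 1.10%), against 1.26%, 0.771% and 0.939% beside them. CCANNAGNNGGC, the core of the CTCF motif, was found in 8, 3 and 5 peaks, which is 0.959%, 0.661% and 0.782%, against 0.959%, 0.991% and 1.10%. GGGCGG, the GC box, which is common in promoters, was present in 8.75%, 8.81% and 8.45% of far distal peaks, in 2.34%, 2.20% and 2.58% of the windows 2000 bp away, and in 51.0%, 48.3% and 48.6% of peaks within 1 kb of a start site. In windows centred on the start sites of protein-coding genes the shares were 4.0% for TGANTCA, 7.48% for GGAATG, 1.01% for AACNGGTT, 9.42% for TGTGGT, 0.383% for the p63 core, 1.70% for the CTCF core and 43.0% for the GC box. All were searched on both strands in the same 100 bp on either side of the summit, and a peak with several motifs counted for each.

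How many far distal peaks recurred in another list varied with the pair of lists, and lay close to the share over all peaks of the list. In adult, 415 of 834 far distal peaks (49.8%, 46.4 to 53.1) overlapped a control peak by at least 1 bp, against 45.5% of all adult peaks, and 518 (62.1%) overlapped an anti-IL-17A/F peak, against 60.4%. In control, 417 of 454 (91.9%) overlapped an adult peak, against 93.3% of all, and 387 (85.2%) an anti-IL-17A/F peak, against 86.6%. In anti-IL-17A/F, 521 of 639 (81.5%) overlapped an adult peak, against 85.6%, and 387 (60.6%) a control peak, against 59.9%. The share is bounded by the length of the other list, so that the lower values of the longer lists do not by themselves show loss. With 4169 peaks in each list, the 6 shares lay between 73.6% and 78.4%.

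**Figure D3:**
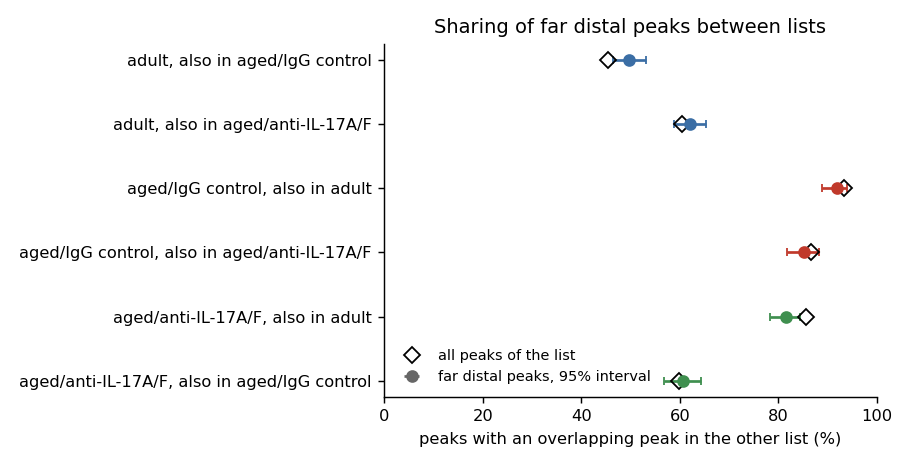
Share of the far distal peaks of a list that overlap a peak of another list (horizontal axis, %), as circles with 95% Wilson intervals, and the same share over all peaks of the list as open diamonds. Far distal peaks lie close to the list as a whole, from 49.8% against 45.5% (adult, also in control) to 81.5% against 85.6% (anti-IL-17A/F, also in adult).

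A pair of these shares differed from those of the remaining peaks of the list beyond counting error. Adult far distal peaks overlapped a control peak 4.72 percentage points more often than other adult peaks did (1.16 to 8.28), and among quartiles of fold enrichment only the lowest had an interval without 0 (6.09, 0.524 to 13.0). By distance, 47.9% of adult peaks at 10 to 50 kb, 48.3% at 1 to 10 kb and 40.1% within 1 kb overlapped a control peak. The far distal share of 49.8% was thus close to those of the other peaks beyond 1 kb. Anti-IL-17A/F far distal peaks overlapped an adult peak less often than other peaks of that list, by -4.59 (-7.91 to -1.61). This was -13.0 (-20.9 to -5.91) in the second quartile of fold enrichment, -6.25 (-12.0 to -1.95) in the third and 0.0752 (-2.07 to 0.425) in the highest, where all 175 far distal peaks overlapped an adult peak. For the other 4 pairs of lists the overall interval held 0, although in the third quartile control far distal peaks overlapped less often in adult (-4.58, -10.6 to -1.31) and in anti-IL-17A/F (-5.56, -12.0 to -1.72), and in the highest quartile in anti-IL-17A/F (-0.807, -4.43 to -0.0228).

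Peaks with the motif were shared more often. Of adult far distal peaks with the NF-κB motif 62.8% overlapped a control peak, against 43.1% of those without it, a difference of 19.7 percentage points (12.5 to 26.4), and 74.1% against 56.0% overlapped an anti-IL-17A/F peak (18.1, 11.4 to 24.5). For control peaks the differences were 5.67 (0.531 to 10.5) in adult and 10.5 (4.06 to 16.6) in anti-IL-17A/F. For anti-IL-17A/F peaks they were 5.67 (-0.584 to 11.5) in adult, with 0 inside the interval, and 12.0 (4.24 to 19.4) in control. The motif share also rose with fold enrichment, and the part of strength in these differences was not tested.

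Over the 975 merged sites, 371 (38.1%, 35.1 to 41.1) had a peak in all 3 lists, against 36.5% of all other sites, a difference of 1.57 percentage points (-1.60 to 4.82). A further 147 sites (15.1%, against 16.99% of all 9513 sites) were in adult and anti-IL-17A/F, 44 (4.51%, against 3.91%) in adult and control and 14 (1.44%, against 1.05%) in both aged lists. In 1 list alone were 272 sites in adult (27.9%, against 31.6%), 23 in control (2.36%, against 1.84%) and 104 in anti-IL-17A/F (10.7%, against 8.01%). The sites in all 3 lists had a median highest fold enrichment of 5.63, and the sites in 1 list had medians of 3.14, 3.09 and 3.12. The motif was present in 44.2% of the former and 24.1% of the latter, a difference of 20.1 percentage points (13.5 to 26.6).

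At the 371 sites in all 3 lists the fold enrichment was higher in adult than in control at 286, with a median ratio of 1.23. It was higher in adult than in anti-IL-17A/F at 234 (1.10) and higher in anti-IL-17A/F than in control at 251 (1.11). At the other 3115 sites in all 3 lists the median ratios were 1.25, 1.13 and 1.11, close to those of the far distal sites. With the adult and anti-IL-17A/F lists exchanged, the values against control change places and the ratio of adult to anti-IL-17A/F turns. Fold enrichment from 3 pools carries the efficiency of each immunoprecipitation, and that cannot be told apart from the condition.

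The study asked how p65 binding in the aged epidermis changes when IL-17 is neutralized, and the far distal peaks bear on this through the peaks of the adult list that control lacks. Of 834 adult far distal peaks 419 (50.2%) had no overlapping control peak, and 147 of these (35.1%, 30.7 to 39.8) had an anti-IL-17A/F peak. Among the other adult peaks without a control peak the share was 35.4%, a difference of -0.332 percentage points (-4.98 to 4.57). With 4169 peaks in each list it was 43.4% of 106 far distal peaks. With the adult and anti-IL-17A/F lists exchanged it was 58.7% of 252 peaks, so that the size of this share, though not the presence of such peaks, rests on the labels.

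The strongest far distal peaks were strong in every list. The peak nearest to Insyn2b had fold enrichments of 18.2 in adult, 8.90 in control and 13.3 in anti-IL-17A/F. The peak in intron 5 of Nav2, a neuron navigator gene, had 17.3, 9.27 and 13.2. The peak 191 kb from Igfbp3, which encodes a binding protein for insulin-like growth factors, had 16.7, 13.5 and 13.2. In all 3 the adult pool had the highest value. The peak 252 kb from Tm2d1 and 353 kb from Nfia, a transcription factor gene, had 15.6, 14.8 and 17.7. The peak in intron 7 of Rad51b, a gene of homologous recombination, had 13.5, 10.9 and 17.8. The peak 75.6 kb from Cryaa, a lens crystallin gene, and 102 kb from Sik1, a kinase gene, had 14.8, 12.9 and 17.1. In these 3 the anti-IL-17A/F pool had the highest value. The lowest values in anti-IL-17A/F among the strongest adult or control peaks were at Pkdcc, a secreted kinase (15.0, 11.1 and 6.29), and at Tmem45b, between that gene and the homeobox gene Barx2 (14.4, 11.9 and 7.86). Of the 9 peaks that are among the 5 strongest of a list, counting the Psmg4 peak, 8 held the NF-κB motif.

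Peaks limited to part of the lists were weaker. The strongest in adult and anti-IL-17A/F only lay in intron 3 of Slc25a13, a mitochondrial carrier (5.48 and 6.18), and by Mef2a, a transcription factor (6.14 and 4.57), and Larp4b (5.69 and 3.64). The strongest in adult and control only were by Adamts9, a matrix protease (5.93 and 4.48), Wdfy3 (4.43 and 5.73) and Ppp4r2 (5.62 and 4.12). In both aged lists only were Hsf2bp (3.14 in control and 4.85 in anti-IL-17A/F), Evc2 (4.47 and 4.54) and Kcnh8, a potassium channel (3.04 and 4.38). Each of these classes thus had its top peaks near or below 6. In adult alone the strongest were between Erg and Ets2, both ETS factors (5.41), in intron 5 of Cachd1 with Raver2 as the nearest start site (4.91), and in intron 4 of Adamtsl1 (4.87). In control alone they were by Nr2c1 (4.12), Prr16 (3.91) and Saxo1 (3.91), and in anti-IL-17A/F alone by Rere (4.40), Syt6 (4.19) and Cdyl (4.12).

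The genes on either side of a far distal peak more often had a p65 peak at their own start site. Of the 7170 protein-coding genes next to sequence that satisfies the distance rule, 1087 flanked a far distal peak of any list (15.2%), 980 an adult peak, 645 a control peak and 814 an anti-IL-17A/F peak. A peak within 1 kb of a start site was present in 214 of the 980 (21.8%, 19.4 to 24.5) in adult, against 14.3% of all 7170, in 63 of 645 (9.77%, 7.71 to 12.3) in control, against 6.36%, and in 114 of 814 (14.0%, 11.8 to 16.6) in anti-IL-17A/F, against 9.26%. The difference from the genes that flank no such peak was 8.78 percentage points (6.16 to 11.6), 3.74 (1.60 to 6.34) and 5.35 (3.02 to 7.99). These shares depend on the length of the lists. With 4169 peaks in each list, 8.63%, 9.77% and 8.52% of flanking genes had a promoter peak, without the spread between lists, and the differences from the other genes were 2.82 (0.788 to 5.31), 3.74 (1.60 to 6.34) and 2.84 (0.852 to 5.29). Most far distal peaks still had no promoter peak at either flanking gene, 58.3% in adult, 80.8% in control and 72.6% in anti-IL-17A/F.

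Far distal sites were dense next to genes of epidermal transcription factors, and a single site lay next to a gene of the list of NF-κB pathway and feedback genes, which border little such sequence. Over the whole genome there were 975 sites in 912 Mb of sequence that satisfies the rule, 1.07 per Mb, and 1087 of the 7170 genes (15.2%) flanked at least 1. Next to the 40 genes of the epidermal factor list that border such sequence there were 80 sites in 12.4 Mb, 6.47 per Mb, and 24 of the 40 flanked a site. For genes of growth factor and Notch signalling it was 33 sites in 8.71 Mb, 3.79 per Mb, and 16 of 29 genes. Adhesion, keratin and barrier genes had 11 sites in 3.01 Mb (3.66 per Mb, 5 of 19 genes), and cytokine, chemokine and receptor genes 10 in 4.32 Mb (2.32 per Mb, 5 of 28). The 35 NF-κB pathway and feedback genes, a list without Map3k7, had 1 site in 1.18 Mb (1 of the 15 genes that border such sequence). AP-1 genes had 2 sites in 1.91 Mb (2 of 5). These were 0.850 and 1.05 per Mb, near the value of the whole genome. These are descriptions of lists chosen with earlier results known.

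**Figure D4:**
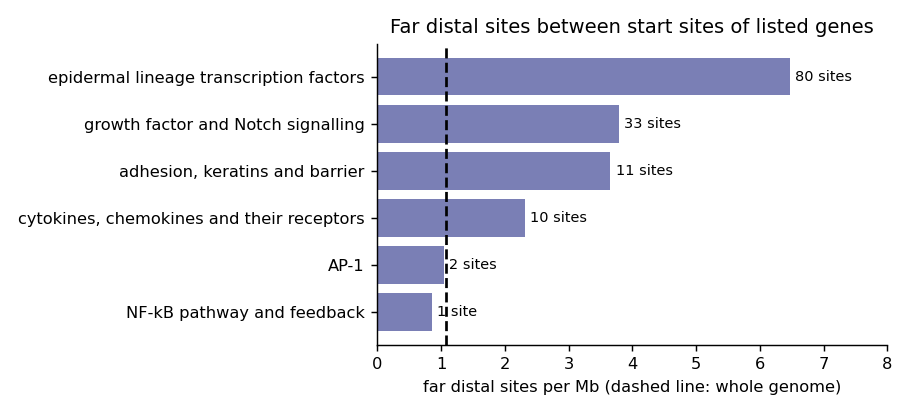
Far distal sites per Mb of sequence at least 50 kb from a start site (horizontal axis) between the start sites of the genes of 6 lists, with the number of sites beside each bar. The dashed line is the value over the whole genome, 1.07 per Mb. The epidermal transcription factors stand at 6.47, and the NF-κB pathway, with 1 site, lies near the line at 0.850.

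Among transcription factors, Klf4 and Trp63 had the most far distal sites around them. Trp63, the master regulator of stratified epithelia, was flanked by 11 sites, 4 of them in all 3 lists. The strongest lay in its own intron 1, between its start sites, with 7.52 in adult, 6.59 in control and 5.66 in anti-IL-17A/F. The peak 168 kb from Cebpb, a factor of keratinocyte differentiation, and 75.3 kb from Ptpn1 had 10.2, 5.74 and 6.84. The peak between Map3k7, the kinase TAK1 upstream of NF-κB, and Bach2, a repressor, had 9.98, 7.04 and 8.24. The peak 128 kb from Gata3, needed for the hair follicle and the barrier, had 8.18, 4.92 and 6.89. All of these were highest in adult, and the last 3 were lowest in control. Such orders were common among the 371 far distal sites in all 3 lists. Adult exceeded control at 286 and anti-IL-17A/F at 234 of these sites, and anti-IL-17A/F exceeded control at 251. The Runx1 peak, 215 kb from that gene, had 12.1, 10.4 and 8.38 and held no NF-κB motif. Its sequence is a tandem repeat, with 64.0% of its bases equal to those a fixed shift away, and it is printed to show this (chr16:93040535-93040635).
Runx1: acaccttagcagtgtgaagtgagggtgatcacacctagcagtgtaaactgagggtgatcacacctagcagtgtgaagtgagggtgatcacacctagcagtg
Repeats of this degree, at least 60% at a shift of 5 to 60 bp, were found at 8 adult, 9 control and 8 anti-IL-17A/F far distal summits (0.959%, 1.98% and 1.25%, against 0.351%, 0.619% and 0.577% of the other peaks), and none of them held the motif.

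Klf4, which builds the skin barrier, bordered the interval with the most far distal sites. The 1209 kb between its start site and that of Actl7b (chromosome 4, 55532475 to 56741425) held 18 sites, 7 of them in all 3 lists and 5 with the NF-κB motif, and 15, 9 and 11 had a peak in adult, control and anti-IL-17A/F. The strongest, 371 kb from Klf4, had 12.7, 10.7 and 11.8 and held both the NF-κB and the AP-1 motif, with A as the free middle base of an AP-1 match. The second, 949 kb from Klf4 and 260 kb from Actl7b, had 9.99, 5.86 and 7.72 and held no NF-κB motif. The remaining sites lay below 6 in every list. No list had a peak within 1 kb of a Klf4 or Actl7b start site.

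**Figure D5:**
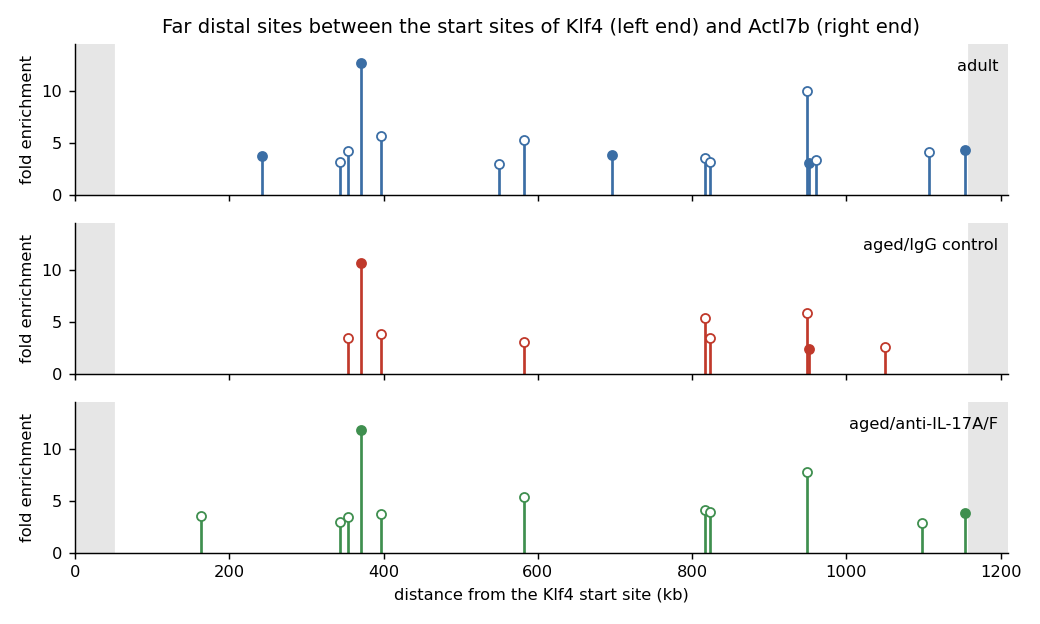
Far distal sites between the start sites of Klf4 and Actl7b by distance from the Klf4 start site (horizontal axis, kb) and fold enrichment (vertical axis), with 1 panel per list. Filled circles hold the NF-κB motif, open circles do not, and the grey ends are within 50 kb of a start site; the sites at 371 and 949 kb are the highest in every panel.

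In the other intervals with many sites these were mostly intronic or intergenic. Between Golph3 and Pdzd2 there were 13 sites, all in introns of Pdzd2, of which 12 were in adult and 2 in all 3 lists, and the strongest had 6.92, 5.47 and 5.42. Between Nav2 and Dbx1 there were 8, 7 in introns and 1 in an exon of Nav2, of which 6 were in all 3 lists and 6 held the motif. Between Tmx1 and Frmd6 there were 8 intergenic sites, 4 in all 3 lists and 1 with the motif. Between Hivep2, which encodes a zinc finger protein that binds κB-like sites, and Adgrg6 there were 7, 2 of them in introns of Hivep2 and 5 intergenic. Of these 7, 4 were in all 3 lists and 4 held the motif, the strongest with 7.83, 7.61 and 6.01. Another 3 intervals held 7 sites as well, 2 of them in all 3 lists in each, between Chd7 and Clvs1, Spring1 and Med13l, and Nectin1 and Thy1. Of 586 intervals with a far distal site 391 held 1, and the 89 with 3 or more held 371 of the 975 sites.

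Of the 16 genes of growth factor and Notch signalling that flanked a far distal site, 10 flanked one present in all 3 lists, and those with the strongest peaks are given here. The peak 79.9 kb from Lrig1, which restrains EGF receptor signalling, had 9.98 in adult, 8.30 in control and 8.09 in anti-IL-17A/F. The peak 120 kb from Bmp2 had 9.50, 6.36 and 7.33, and Bmp2 had a peak at its start site in every list. The peak in intron 2 of Igf1r, the IGF receptor, had 6.20, 4.30 and 5.30. Irs2, an adaptor of that receptor, was 213 kb from a peak in intron 29 of Col4a1 with 5.71, 5.11 and 6.52. The peak 297 kb from Jag1, a Notch ligand, had 5.27, 2.99 and 3.97. The peak in intron 1 of Smad3, which carries the TGF-β signal, had 4.56, 5.05 and 5.46. The site between Tfap2c and Bmp7 had 5.58, 6.05 and 5.90. These last 2 had their lowest value in adult. Myof had a peak in its intron 16 in adult (3.55) and anti-IL-17A/F (4.88) and none in control.

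Of the immune genes, the peak 65.7 kb from Il6st, which encodes gp130, the shared signalling subunit of the IL-6 receptor family, had 8.001, 6.56 and 8.11. Il15 lay 646 kb from a peak in intron 4 of Inpp4b with 7.09, 4.76 and 6.87. The peak 98.5 kb from the chemokine gene Cxcl12 had 5.27, 3.76 and 4.0. All 3 had their lowest value in control. Lower values in control were common elsewhere. Of the 371 far distal sites in all 3 lists, adult exceeded control at 286 and anti-IL-17A/F exceeded control at 251. At the other 3115 sites in all 3 lists these counts were 2508 and 2081. Peaks by Osmr, the oncostatin M receptor (3.14), and Tslp, an epithelial alarmin (3.004), were present in adult alone. The single site by a gene of the NF-κB list lay in intron 16 of Manba, 123 kb from Nfkb1, with 3.10, 3.09 and 3.47, while Nfkb1 had a promoter peak in every list. Of AP-1 genes, Jun was 331 kb from a peak present in adult (2.86) and anti-IL-17A/F (3.23), and Maf 748 kb from one present in control (2.99) and anti-IL-17A/F (3.2).

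Of adhesion and barrier genes, the strongest peak by Cd44, a hyaluronan receptor, lay 80.02 kb from it and had 6.70, 2.42 and 4.96. The value in control was close to the lowest that was called. The strongest peak by Itgb6, an integrin of epithelia, had 1.92 in adult and 3.09 in anti-IL-17A/F. A peak by Dsc1, a desmosomal cadherin, had 3.22 in adult and 3.24 in control, and the strongest by Itgb8 had 3.75 in adult alone. At fold enrichments near 3, presence in one list and absence from another cannot be told apart from the calling threshold.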

How the data were processed

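According to the methods, the authors trimmed reads with Trimmomatic 0.36, aligned them to mm10, merged and deduplicated the alignments of the 4 mice of a condition, brought each pool to the same depth by downsampling and ran MACS2 with a q cutoff of 0.01 and a fixed fragment length of 300 bp. The control library of the peak calling is not given in the sources used here. The deposited lists give each peak's fold enrichment over the local background (a ratio), the −log10 of its p-value and q-value, a score (10 times the latter, rounded down) and its summit. Merging removes the spread between mice, and equal depth does not equalize the efficiency of the immunoprecipitation.

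From these lists, distances, exons, introns and flanking genes were taken from the RefSeq annotation of GRCm38 (release 108.20200622), the assembly of mm10. Introns and exons were read at the middle of the peak. Overlap needed 1 bp. Shares have 95% Wilson intervals and differences within a list 95% Newcombe intervals. The genome was sampled every 1000 bp. Steps were tested on simulated data and against bedtools 2.31.1. Python 3.11.15, numpy 2.4.6, pandas 2.3.3, scipy 1.17.1 and matplotlib 3.10.9 were used.

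The peaks and gene lists were chosen with earlier results of these data known. Named were the 5 strongest and 3 farthest peaks of each list, the 3 strongest of each sharing class, the 5 intervals with the most sites (the fifth tied with 3 others, which are given by their counts), and up to 8 genes of each of 6 lists by fold enrichment of the peaks they flank. Of the genes so named, 1 is not reported here. The lists were NF-κB pathway and feedback, cytokines, chemokines and receptors, epidermal transcription factors, AP-1, adhesion, keratins and barrier, and growth factor and Notch signalling. Motifs other than NF-κB, tandem repeats and sites per Mb were added after the files were opened. Alternatives were stricter q values, equal list lengths, other start sites, distances, windows and overlaps, and an exchange of the adult and anti-IL-17A/F lists.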

Additional observations from a re-analysis of the deposited data

How the results depend on the processing

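Of 217 values recomputed under 17 alternatives, 155 stayed within limits, and no value reversed. Control is the shortest list, so that equal list lengths could not move values that rest on this list alone. These unchanged values are counted among the 155. The limits were the reported interval for a share, 1.5 times for a count, and the direction and the side of 0 of the interval for a difference. Where a value moved, the cause was not tested beyond what the setting itself changes. The lists have no replicates, so that no value without a replicate could be computed. No paired analysis was possible because each condition has 1 pooled list. Peaks near the calling threshold limit every count of presence.

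Values are given for adult, control and anti-IL-17A/F in that order. With start sites of protein-coding genes only, there were 1462, 782 and 1113 far distal peaks (17.2%, 18.8% and 18.5% of the list), 38.2%, 38.7% and 38.5% intronic. With predicted start sites added there were 207, 120 and 158 (2.43%, 2.88% and 2.63%), intronic in 51.2% of adult and 51.9% of anti-IL-17A/F peaks. In that set 53.6% of adult and 65.8% of anti-IL-17A/F peaks overlapped a control peak. At 100 kb or more there were 341, 184 and 265 (4.0%, 4.41% and 4.41%), with the motif in 46.2% of control peaks.

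With equal list lengths adult had 439 far distal peaks (10.5%), and the motif share was 42.4% in adult and 42.5% in anti-IL-17A/F (43.4% and 42.9% when cut by fold enrichment, added after the data were seen). The adult difference from promoter peaks was then 5.28 percentage points, with an interval that held 0 (-0.0237 to 10.7). Overlap was 75.9% (adult in control), 78.4% (adult in anti-IL-17A/F), 73.6% (control in adult), 76.7% (control in anti-IL-17A/F), 74.7% (anti-IL-17A/F in adult) and 75.2% (anti-IL-17A/F in control), 47.5% of sites were in all 3 lists, and flanking genes had promoter peaks in 8.63% (adult) and 8.52% (anti-IL-17A/F). Of adult peaks without a control peak 43.4% had an anti-IL-17A/F peak. With the full lists exchanged this was 58.7%.

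At −log10 q of 10 or more, 10.5% of adult peaks were far distal, the motif share was 39.5%, 48.3% and 42.7%, and 12.4%, 6.08% and 8.58% of flanking genes had a promoter peak. With promoters taken as 5 kb, these were 25.8%, 13.3% and 18.9%. The motif share was 27.5%, 32.4% and 31.0% within 50 bp of the summit, 38.4% (adult) and 42.9% (anti-IL-17A/F) within 200 bp, and 39.3%, 45.8% and 43.7% in the whole peak.

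Differences that kept their interval above 0 also changed in size. At −log10 q of 10 or more the promoter peak difference of flanking genes was 4.36, 2.13 and 2.98 percentage points. The motif difference in control was 5.69 with matches within 200 bp and 14.2 at 100 kb or more.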
